A study of Homo sapiens with 30 samples.

Results

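The expression of 10 genes of transforming growth factor β (TGF-β) and activin signaling was analyzed in 5 breast cancer cell lines with and without bone morphogenetic protein 7 (BMP7). They were the ligand genes TGFB1, TGFB2 and TGFB3, the activin and inhibin subunit genes INHBA and INHBB, the receptor genes TGFBR1 and TGFBR2, the co-receptor genes TGFBR3 and ENG, and the target gene TGFBI. All array features carrying one of these gene names were taken, which gave 13 of the 41000 features measured, by gene name alone. TGFB2, TGFB3 and TGFBR2 had 2 probes each and the other genes 1. Where a gene had 2, the brighter one in vehicle-treated cells is called the leading probe.

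HCC1954, MDA-MB-231, MDA-MB-361, T-47D and ZR-75-30 cells were given vehicle or recombinant human BMP7 and harvested after 30 min or after 1, 3, 6, 12 or 24 h. Each of the 30 two-colour arrays set the BMP7-treated cells of 1 line and time point (Cy5) against vehicle-treated cells (Cy3), with 3 cultures pooled per sample. No array was repeated and no dyes were swapped, so the 6 arrays of a line are 6 time points, not replicates of 1 condition, and p-values measure only the spread among these arrays. Each line is 1 model, and MDA-MB-231 and T-47D were grown with other serum concentrations than the culture collection recommends, so that cell line and medium cannot be told apart for them.

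TGF-β ligands are secreted as latent dimers and, once activated, bind TGFBR2, the type II receptor kinase, which recruits and phosphorylates TGFBR1, the type I receptor. TGFBR1 passes the signal to SMAD2 and SMAD3, as the activin receptors do, whereas BMP7 signals mainly through SMAD1, SMAD5 and SMAD9. TGFBR3 (betaglycan) presents ligand, above all TGFB2, to the type II receptor, and ENG (endoglin) is a co-receptor best known from endothelial cells. INHBA and INHBB encode the chains of activin A and activin B, and TGFBI encodes an extracellular matrix protein first found through its induction by TGF-β.

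The arrays themselves differed in quality. Between 53.8% and 68.3% of features per array (median 63.1%) were well above background in both channels. ZR-75-30 at 6 h stood apart with 4044 features changed at least 2-fold, against 2092 on the next array, and MDA-MB-231 at 6 h had the dimmest vehicle channel and 6.32% of its spots marked as outliers. The arrays lay on 13 slides, of which 1 held 2 lines, and were scanned in 2 batches, with 6 arrays in the second, so line and slide largely coincide. Of the epithelial markers, 5 of 5 (KRT8, KRT18, KRT19, CDH1 and EPCAM) were well above background on every array of each line. CDH1 was lowest in MDA-MB-231, at a mean level of -1.80, against 4.83 to 6.79 in the other lines. PTPRC, the defining marker of white blood cells, and COL1A2, a fibroblast collagen, were not well above background on any array, whereas CD3E and CD14 were on all of them. The fibroblast markers LUM and PDGFRB were well above background on 5 of 6 arrays of MDA-MB-231 each, and LUM on 1 of T-47D.

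Since TGFB2, INHBA, TGFBR2 and TGFBI had their highest levels in HCC1954 and MDA-MB-231 and TGFB3 its lowest levels there, as described below, the 250 bases before their transcription starts are shown for comparison. They were taken from RefSeq on GRCh38.p14, on the strand of the gene, with the most downstream of 2 starts for TGFB3 and TGFBR2. Capitals mark matches on either strand to 7 motifs searched: the TATA box TATAAA, the GC box GGGCGG, the CCAAT box CCAAT, the AP-1 site TGAGTCA, the cAMP response element TGACGTCA, the E-box CACCTG and the SMAD box GTCTAGAC.
TGFB2 (chr1:218345086-218345335, + strand): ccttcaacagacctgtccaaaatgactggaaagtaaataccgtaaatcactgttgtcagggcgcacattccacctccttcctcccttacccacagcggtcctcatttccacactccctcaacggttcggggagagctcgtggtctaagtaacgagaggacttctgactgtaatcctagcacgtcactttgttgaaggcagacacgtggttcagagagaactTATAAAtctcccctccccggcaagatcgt
TGFB3 (chr14:75981996-75982245, - strand): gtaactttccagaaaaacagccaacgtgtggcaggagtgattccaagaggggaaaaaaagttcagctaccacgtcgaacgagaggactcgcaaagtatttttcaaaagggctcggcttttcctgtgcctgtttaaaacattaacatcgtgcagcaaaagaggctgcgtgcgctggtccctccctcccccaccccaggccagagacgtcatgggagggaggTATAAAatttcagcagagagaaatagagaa
INHBA (chr7:41703091-41703340, - strand): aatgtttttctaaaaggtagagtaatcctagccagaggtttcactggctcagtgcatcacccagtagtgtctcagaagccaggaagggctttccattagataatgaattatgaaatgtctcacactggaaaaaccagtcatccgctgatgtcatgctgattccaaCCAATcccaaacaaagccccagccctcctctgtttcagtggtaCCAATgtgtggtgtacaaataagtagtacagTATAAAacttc
TGFBR2 (chr3:30606351-30606600, + strand): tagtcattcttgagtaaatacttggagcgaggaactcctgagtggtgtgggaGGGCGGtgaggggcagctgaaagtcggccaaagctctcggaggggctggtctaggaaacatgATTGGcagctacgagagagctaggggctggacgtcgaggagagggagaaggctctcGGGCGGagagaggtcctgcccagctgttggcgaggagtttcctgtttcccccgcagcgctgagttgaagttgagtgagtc
TGFBI (chr5:136028738-136028987, + strand): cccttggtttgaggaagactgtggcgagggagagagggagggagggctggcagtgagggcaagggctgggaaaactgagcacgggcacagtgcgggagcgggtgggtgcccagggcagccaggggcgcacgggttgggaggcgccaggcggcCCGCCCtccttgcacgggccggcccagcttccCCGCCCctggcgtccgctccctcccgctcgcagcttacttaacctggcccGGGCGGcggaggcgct

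TGFB2, TGFB3 and INHBA held a TATA box, beginning 29, 30 and 11 bases before the start, as did 10.7% of 35116 promoter windows of this length. TGFBI held 3 GC boxes and TGFBR2 held 2, a motif present in 42.6% of the windows. The GC content ran from 42.8% in INHBA to 72.8% in TGFBI, against a median of 58.0% over all windows. A CCAAT box, found in 32.0%, lay in INHBA at 85 and 42 bases and in TGFBR2 at 136 bases before the start. The AP-1 site (4.20% of windows), the cAMP response element (1.65%), the E-box (17.5%) and the SMAD box (0.182%) had no match in these 5 windows. No motif of this set was common to these 4 genes. TGFB2 and INHBA shared the TATA box with TGFB3, and TGFBR2 and TGFBI shared the GC box. A match or its absence describes only these letters in these windows.

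The first question was how the genes are expressed in each line without BMP7. Levels are given as log2 of the processed Cy3 signal relative to the 75th percentile of the array, so a level of 0 equals that percentile, and they are compared between lines for 1 probe at a time. HCC1954 and MDA-MB-231 had the highest levels of TGFB2, INHBA, TGFBR2 and TGFBI, whereas MDA-MB-361 and T-47D had the highest levels of TGFB3. TGFB1 and TGFBR2 were not well above background on any T-47D array. In these RNA samples of whole cultures, fewer expressing cells and less RNA per cell cannot be told apart. In limma, 13 of 13 probes differed between the lines, but so did 79.6% of all features. The median span between the highest and lowest line mean was 5.51 for the 10 leading probes. It was 1.50 for all features and 1.80 for the 27975 features well above background throughout at least 1 line. Of these 27975, 65.7% were well above background on all 30 arrays, but of the leading probes only those of INHBB and TGFB2 were. The other spans thus rest in part on dim signals. After normexp background correction and Aquantile normalization the 10 spans ran from 1.11 (ENG) to 7.21 (TGFBI). The span over all features is not given here for that setting.

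**Figure D1:**
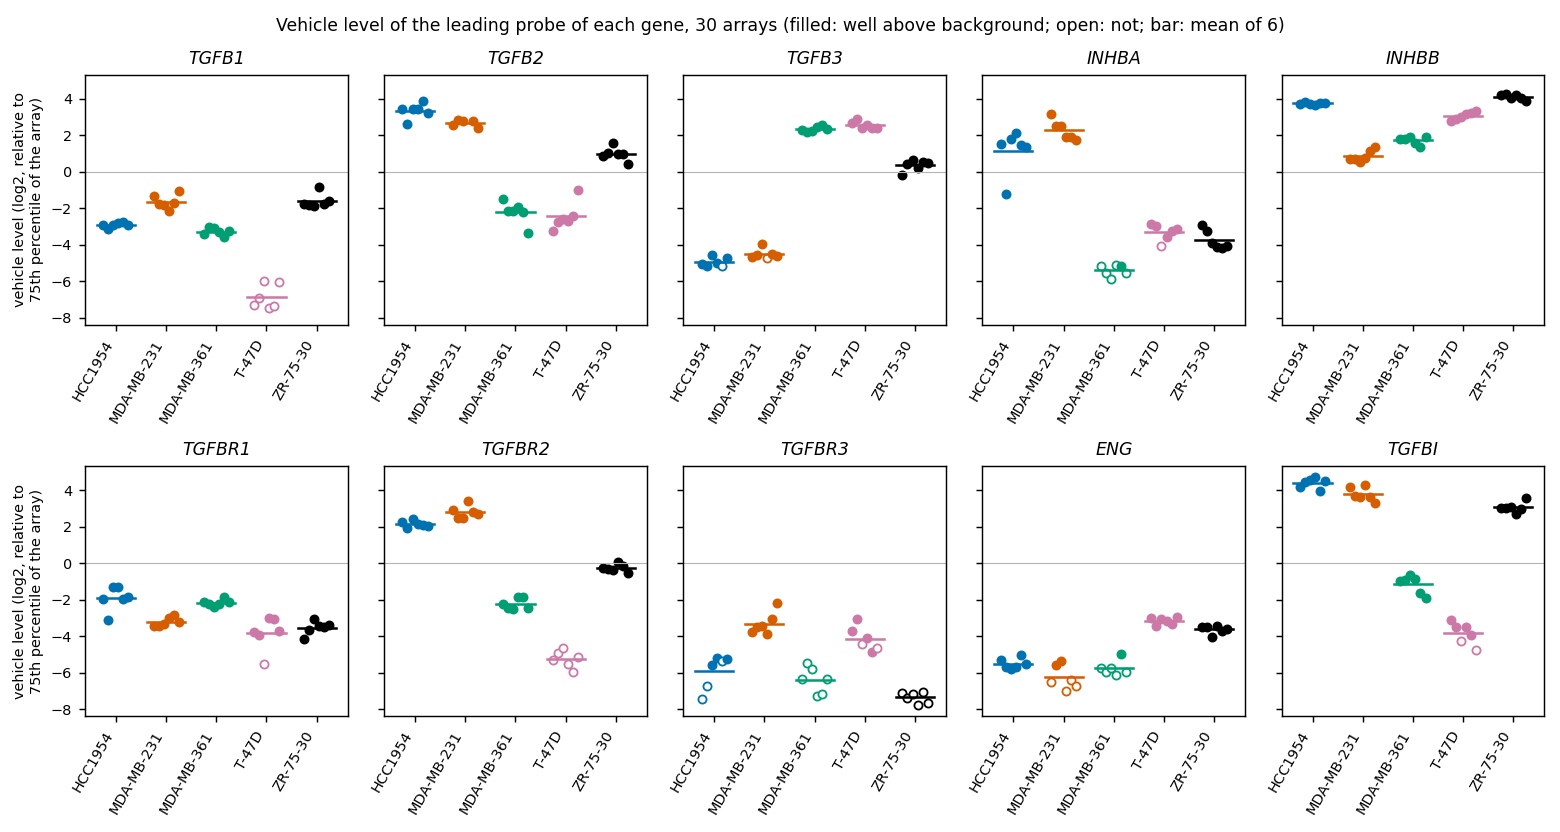
Vehicle level of the leading probe of each of the 10 genes on all 30 arrays, as log2 relative to the array's 75th percentile (y axis), by cell line (x axis, within a line from 30 min on the left to 24 h on the right). Filled points were well above background, open points were not, and bars are means of up to 6 arrays; TGFB2, TGFBR2 and TGFBI are highest in HCC1954 and MDA-MB-231 and TGFB3 in MDA-MB-361 and T-47D.

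TGFB2 encodes the ligand that depends most on betaglycan. Its level (lowest, median and highest of the arrays) was 2.65, 3.45 and 3.88 in HCC1954 and 2.42, 2.81 and 2.86 in MDA-MB-231, where 1 outlier-marked spot at 6 h left 5 arrays. It was 0.45, 0.97 and 1.55 in ZR-75-30, -3.35, -2.17 and -1.50 in MDA-MB-361, and -3.23, -2.64 and -0.98 in T-47D. The 3 higher lines did not overlap with the 2 lower ones. HCC1954 exceeded T-47D by 5.79 ± 0.29 (SE), which is 55.5-fold (limma, adjusted p = 3.4e-16), and MDA-MB-361 by 5.57 ± 0.29. HCC1954 and MDA-MB-231 differed by 0.66, with a 95% interval from 0.030 to 1.28 (adjusted p = 0.0904), and MDA-MB-361 and T-47D by 0.23, with an interval from -0.37 to 0.82.

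TGFB3, the ligand with known roles in palate and mammary gland, had the reverse order. Its level was 2.40, 2.50 and 2.88 (lowest, median and highest) in T-47D, 2.18, 2.32 and 2.58 in MDA-MB-361, and -0.17, 0.46 and 0.63 in ZR-75-30. It was -4.70, -4.59 and -3.95 in MDA-MB-231 and -5.15, -5.02 and -4.59 in HCC1954, with 5 of 6 arrays well above background in each. No array of the first 3 lines overlapped with those of the last 2. T-47D exceeded HCC1954 by 7.5 ± 0.15 (181-fold on this scale, limma, adjusted p = 8.5e-26) and ZR-75-30 by 2.20 ± 0.15. The first difference rests in part on dim signals in HCC1954. After normexp and Aquantile normalization the span between the highest and lowest line mean of TGFB3 was 5.59. T-47D and MDA-MB-361 differed by 0.21, with an interval from -0.10 to 0.52 (limma, adjusted p = 0.273).

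TGFB1, the best studied ligand, was read from 10 spots per array. Its level was -1.88, -1.78 and -0.85 in ZR-75-30, -2.16, -1.73 and -1.07 in MDA-MB-231, -3.12, -2.89 and -2.75 in HCC1954, and -3.57, -3.27 and -3.04 in MDA-MB-361. The levels of the first 2 lines overlapped and their means differed by only 0.027, with an interval from -0.45 to 0.50 (adjusted p = 0.938). In T-47D, TGFB1 was not well above background on any of the 6 arrays and gave a mean measured level of -6.84 ± 0.67 (SD). It was therefore at least 4.48-fold higher in ZR-75-30, 4.30-fold in MDA-MB-231, 2.51-fold in HCC1954 and 2.05-fold in MDA-MB-361. These bounds, and those below, set the bright line's mean against the higher of the dim probe's own signal and the faintest signal well above background on each array, after normexp, loess and Aquantile normalization, and a dye bias could be part of them, since no dyes were swapped.

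INHBA, the gene of the activin A chain, had levels of 1.72, 2.21 and 3.15 (lowest, median and highest) in MDA-MB-231 and -1.20, 1.49 and 2.10 in HCC1954. The levels were -4.09, -3.20 and -2.87 in T-47D, -4.15, -3.99 and -2.94 in ZR-75-30, and -5.86, -5.35 and -5.09 in MDA-MB-361, where 1 of 6 arrays was well above background. Both high lines lay above all arrays of the 3 others. MDA-MB-231 exceeded MDA-MB-361 by 7.68 ± 0.37 (limma, adjusted p = 4.1e-17), a difference that rests mostly on signals near background in MDA-MB-361 and was 5.36 after normexp and Aquantile normalization. Its excess over HCC1954 of 1.12 ± 0.37 (adjusted p = 0.0162) rested in part on HCC1954 at 1 h, without which it was 0.64 (adjusted p = 0.0551).

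INHBB, the activin B chain gene, was well above background on all 30 arrays. Its mean level was 4.09 ± 0.15 (SD, n = 6) in ZR-75-30, 3.75 ± 0.065 in HCC1954, 3.07 ± 0.21 in T-47D, 1.73 ± 0.22 in MDA-MB-361 and 0.87 ± 0.31 in MDA-MB-231. The order thus differed from that of INHBA, since MDA-MB-231 was the highest line for one activin chain and the lowest for the other. In limma, 10 of 10 pairs of lines differed, ZR-75-30 over MDA-MB-231 by 3.22 ± 0.14 (9.35-fold, adjusted p = 4.4e-18), but the pair of HCC1954 and ZR-75-30 only narrowly (adjusted p = 0.0484, lost under 12 of 16 alternatives).

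TGFBR2, the type II receptor, differed in 10 of 10 pairs of lines by its leading probe, as INHBB and TGFBI did. Its second probe did not separate MDA-MB-231 from HCC1954 (0.27 apart, limma, adjusted p = 0.593). The level of the leading probe was 2.47, 2.75 and 3.39 in MDA-MB-231 and 1.94, 2.14 and 2.39 in HCC1954. It was -0.54, -0.29 and 0.071 in ZR-75-30, and -2.51, -2.35 and -1.85 in MDA-MB-361. HCC1954 and ZR-75-30 differed by 2.41 ± 0.19 and ZR-75-30 and MDA-MB-361 by 1.98 ± 0.19, with no overlap of arrays in either pair. In T-47D it was not well above background on any array, with a mean measured level of -5.25 ± 0.47 (SD). Relative to T-47D, TGFBR2 was at least 48.2-fold higher in MDA-MB-231, 34.4-fold in HCC1954, 7.51-fold in ZR-75-30 and 2.30-fold in MDA-MB-361 (largest limma adjusted p = 6.5e-14).

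TGFBR1, the type I receptor, spanned only 1.91 between lines, the least of the 10 genes. Its mean level was -1.93 ± 0.66 (SD, n = 6) in HCC1954, -2.17 ± 0.19 in MDA-MB-361, -3.22 ± 0.25 in MDA-MB-231, -3.54 ± 0.37 in ZR-75-30 and -3.84 ± 0.93 in T-47D. By line means, both receptors were thus highest or second highest in HCC1954 and lowest in T-47D, but MDA-MB-361, which was low in TGFBR2, was not low in TGFBR1. HCC1954 exceeded T-47D in TGFBR1 by 1.91 ± 0.31 (limma, adjusted p = 6.1e-06), and 6 of 10 pairs of lines differed. T-47D did not pass the test against ZR-75-30 (0.30 apart, adjusted p = 0.445) or MDA-MB-231. Neither did HCC1954 against MDA-MB-361 (0.24 apart, adjusted p = 0.518).

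TGFBR3 was highest in MDA-MB-231 and T-47D. Its mean level was -3.32 ± 0.61 (SD, n = 6) in the former, with 6 of 6 arrays well above background, and -4.15 ± 0.66 in the latter, with 4 of 6. HCC1954 had a mean of -5.93 ± 0.95 with 3 of 6 arrays well above background, and its values ran from -7.47 to -5.18. In MDA-MB-361 and ZR-75-30 no array was well above background, with mean measured levels of -6.40 ± 0.71 and -7.36 ± 0.30, and MDA-MB-231 exceeded them at least 2.07-fold and 2.15-fold.

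ENG was highest in T-47D and ZR-75-30, with mean levels of -3.16 ± 0.19 (SD, n = 6) and -3.63 ± 0.22, all arrays well above background. Those 2 lines did not overlap with the 3 others, whose means were -5.51 ± 0.28 in HCC1954, -5.76 ± 0.40 in MDA-MB-361 and -6.26 ± 0.66 in MDA-MB-231. Its signal exceeded background clearly on 6 of 6 HCC1954 arrays but on 2 of 6 in MDA-MB-231 and 1 of 6 in MDA-MB-361, so that differences from the last 2 rest mostly on signals near background. T-47D exceeded MDA-MB-231 by 3.10 ± 0.23 (limma, adjusted p = 7.3e-13), but by 1.11 after normexp and Aquantile normalization. The endothelial markers PECAM1 and CDH5 were not well above background on any array of T-47D or ZR-75-30, while VWF was on the 6 of ZR-75-30. In HCC1954, where ENG was low, PECAM1 was well above background on 6 of 6 arrays.

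TGFBI, the matrix gene named for its induction by TGF-β, had the widest span of the 10 genes, 8.25. Its level was 3.96, 4.48 and 4.71 (lowest, median and highest) in HCC1954, 3.27, 3.65 and 4.27 in MDA-MB-231, and 2.70, 3.02 and 3.58 in ZR-75-30. It was -1.89, -0.95 and -0.63 in MDA-MB-361 and -4.78, -3.73 and -3.11 in T-47D, with 4 of 6 arrays well above background there. The first 3 lines lay clear of MDA-MB-361, which in turn lay clear of T-47D. HCC1954 exceeded T-47D by 8.25 ± 0.25 (limma, adjusted p = 4.5e-22), and by 7.21 after normexp and Aquantile normalization, while the steps from HCC1954 to MDA-MB-231 and on to ZR-75-30 were 0.63 and 0.71.

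Over all pairs of lines, 109 of 130 differences of the 13 probes passed the test (85 of 100 for the leading probes), against 48.0% of the differences of all features. By pair, the share of all features called was 41.2% for HCC1954 and MDA-MB-231, 49.2% for HCC1954 and MDA-MB-361, 61.8% for HCC1954 and T-47D, 41.8% for HCC1954 and ZR-75-30, and 50.6% for MDA-MB-231 and MDA-MB-361. It was 57.3% for MDA-MB-231 and T-47D, 44.7% for MDA-MB-231 and ZR-75-30, 45.7% for MDA-MB-361 and T-47D, 41.2% for MDA-MB-361 and ZR-75-30, and 46.2% for T-47D and ZR-75-30. The median of all features itself differed between lines on this scale, most between HCC1954 and T-47D (-0.55), and by -0.055 for that pair after quantile normalization, under which the spans of TGFB3 and TGFBI were 7.34 and 8.58. After normexp background correction and Aquantile normalization, which pull dim signals together, they were 5.59 and 7.21, and the spans of TGFB1, TGFBR3 and ENG shrank to 2.26, 1.22 and 1.11. With each of these settings 13 of 13 probes still differed between lines.

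Across the arrays, the genes fell into few patterns, which are described by Pearson's r over 30 arrays (29 for TGFB2) that share 5 lines, so no p is given. TGFBI and TGFBR2 varied most alike (r = 0.95), followed by TGFB2 with TGFBR2 and with TGFBI (both 0.92), and by TGFB1 with TGFBI, TGFB1 with TGFBR2 and INHBA with TGFB2 (each 0.83). The r values of TGFB1 and TGFBR2 include the T-47D arrays, none of which was well above background for either gene. In the lines where TGFB1 was measured, the orders differed, with TGFB1 highest in ZR-75-30 and TGFBI highest in HCC1954. INHBA had r = 0.76 to TGFBR2 and 0.66 to TGFBI. TGFB3 ran opposite to TGFB2 (-0.94), INHBA (-0.92) and TGFBR2 (-0.91). INHBB and TGFBR1 followed none of them, with r between -0.17 and 0.32 to TGFB2, TGFBR2 and TGFBI.

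Among 12928 gene symbols bright enough to be compared, the one most like INHBA was VIM, the mesenchymal intermediate filament vimentin (r = 0.98), and TGM2, a transglutaminase, was the third (0.97). VIM had a mean level of 6.93 in MDA-MB-231 and 4.41 in HCC1954, against -4.84 to -2.03 in the other lines. The mesenchymal markers ZEB1, CDH2 and SPARC did not share this pattern, being well above background on no HCC1954 array. For MDA-MB-231 the counts were 5, 6 and 2 of 6 arrays. CDH2 was also well above background on 6 of 6 arrays in MDA-MB-361, and SPARC on 5 of 6 in T-47D. Most like TGFBR2 were SH3KBP1, HS3ST1 and LOXL2 (0.97 to 0.98), most like TGFBI were TMEM51, the Wnt antagonist DKK1 and RECK (0.97 to 0.98), and most like TGFB3 were AMZ1, SCUBE2 and NCAM2 (0.98 to 0.99). TGFB1 was most like SPRY4 (0.98), INHBB most like SNX27 (0.96) and ENG most like RIPPLY3 (0.95). TGFBR3 was most like IL22RA1 (0.93) and TGFBR1 most like FGD6 (0.86). TGFB2 was most like NAMPT (0.98) among 13805 symbols over its 29 arrays.

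The paired probes served as a check of the levels. The files place the leading TGFB2 probe at chr1:216683872-216683931 and the other at chr1:216681407-216681466 (hg18). For TGFB3 they lie at chr14:75494657-75494716 and chr14:75499576-75501735, and for TGFBR2 at chr3:30710167-30710226 and chr3:30690717-30704913, the second interval of each being longer than the 60 bases that single-interval probes cover. The other probes lie at chr7:41695771-41695830 (INHBA), chr2:120825250-120825309 (INHBB), chr9:100952018-100952077 (TGFBR1), chr1:91921476-91921535 (TGFBR3) and chr5:135427242-135427301 (TGFBI), and within chr19:46529982-46539642 (TGFB1) and chr9:129618138-129619292 (ENG). No exon annotation of this build was used here. The vehicle levels of both probes followed each other with r = 0.96 for TGFB2, 0.98 for TGFB3 and 0.91 for TGFBR2. Their BMP7 log ratios did so less or ran opposite, with r = -0.62, 0.50 and 0.026, and -0.41, 0.39 and 0.0041 without ZR-75-30 at 6 h. Over the 18, 17 and 15 arrays on which both probes were well above background, r was -0.75, 0.53 and 0.32. The lines were thus ranked alike by both probes of a gene, save for the neighbors MDA-MB-361 and T-47D at TGFB2 and TGFB3, while their BMP7 ratios had r of at most 0.53. In the low lines the second probes were mostly near background, so the order among those lines is not checked by them. The second TGFB2 probe was well above background on 1 of 6 MDA-MB-361 and 0 of 6 T-47D arrays. That of TGFB3 was on 0 of 6 in HCC1954 and MDA-MB-231, and that of TGFBR2 on 0 of 6 in MDA-MB-361 and T-47D and 3 of 6 in ZR-75-30.

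**Figure D2:**
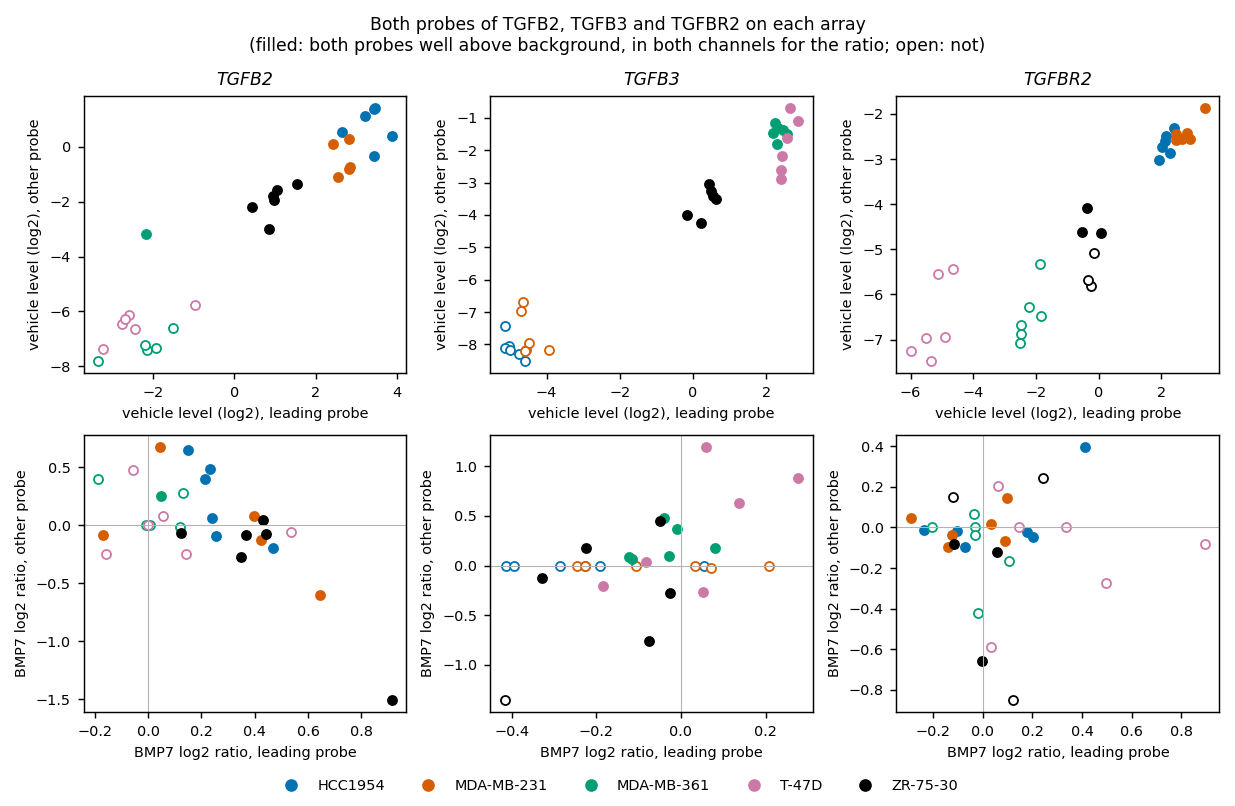
Both probes of TGFB2, TGFB3 and TGFBR2 on each array, with the leading probe on the x axis and the other on the y axis, coloured by cell line. The upper row shows vehicle levels (log2 relative to the 75th percentile), which rise together (r = 0.91 to 0.98), and the lower row BMP7 log2 ratios, with r from -0.62 to 0.50; open points were not well above background for both probes.

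The next question was whether BMP7 changed these genes. The BMP7 log ratio is log2 of the BMP7 over the vehicle signal and, with one dye orientation throughout, includes any fixed dye bias of the probe. The ratios were small, with a median size of 0.14 over the 13 probes and 0.13 over all features. Of 389 single-array ratios, 6 reached 2-fold, 2 higher and 4 lower, and 3 of these had both channels well above background. Over all features 0.908% of ratios were at least 2-fold higher and 0.957% at least 2-fold lower, and 0.798% in either direction where both channels were well above background. The 3 events with both channels well above background were a ratio of -1.11 for TGFBR1 in MDA-MB-361 at 12 h, of -1.50 for the second TGFB2 probe in ZR-75-30 at 6 h and of 1.19 for the second TGFB3 probe in T-47D at 24 h. On those last 2 arrays the leading probes gave 0.91 and 0.059.

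**Figure D3:**
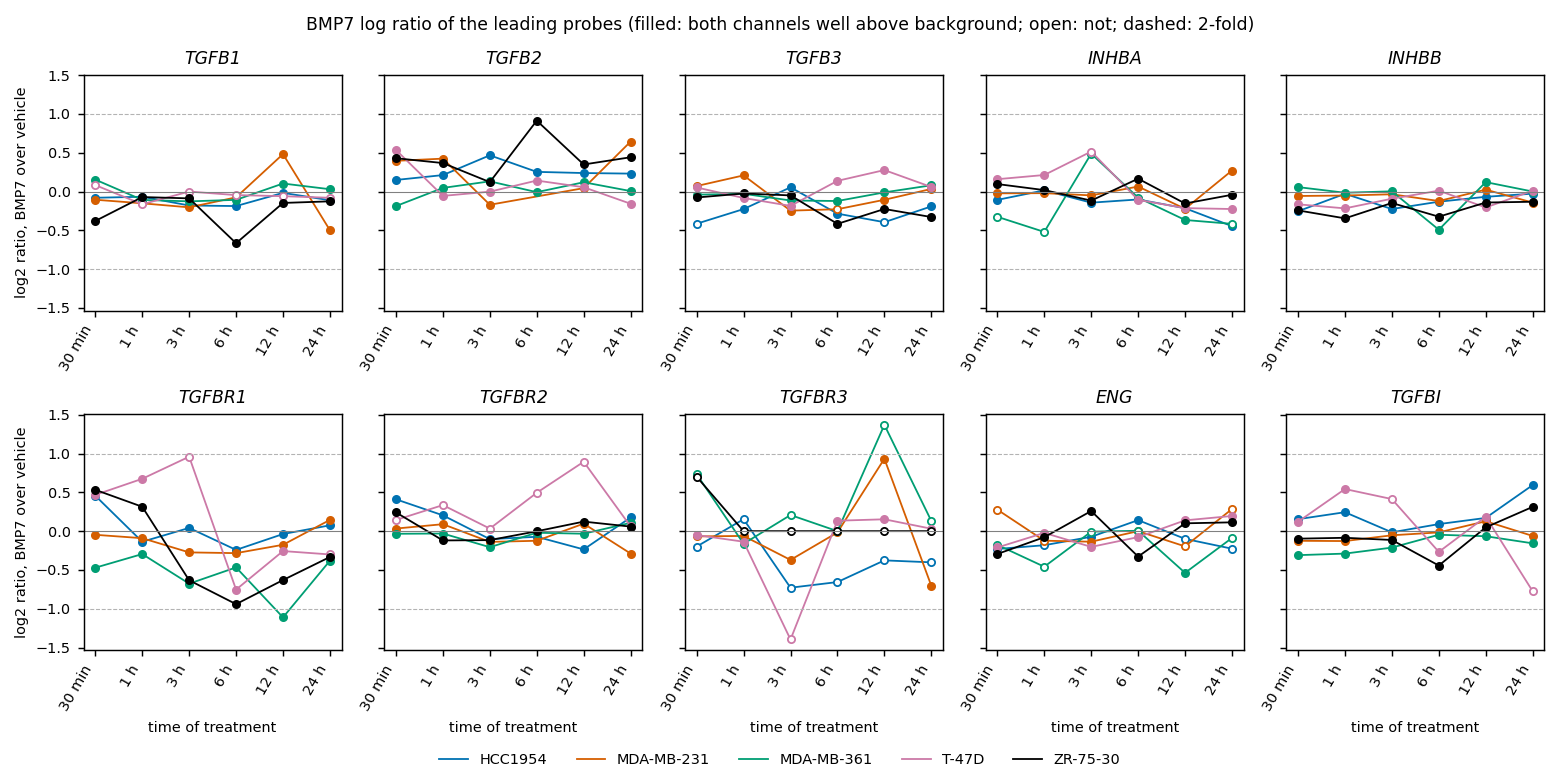
BMP7 log2 ratio of the leading probe of each gene (y axis) against time of treatment (x axis), 1 array per point and 1 line per cell line. Filled points had both channels well above background, open points did not, and dashed lines mark 2-fold; nearly all points lie within 2-fold, TGFBR1 turns from above to below 0 in T-47D and ZR-75-30, and the points of TGFBR3 beyond 2-fold are open.

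Genes known as direct BMP targets were read first as a check of the treatment. From 30 min to the 3 to 24 h time points, the log ratio rose for 4 of 4 of them, by 1.14 ± 0.17 (SE) for ID2, 1.05 ± 0.24 for ID1, 0.92 ± 0.16 for ID3 and 0.57 ± 0.12 for SMAD6 (limma, adjusted p = 0.0130 to 0.0490). In the same fit 0 of the 13 TGF-β and activin probes passed, while 0.571% of all features did, and 2 of the 13 had an unadjusted p under the threshold. The largest change was that of TGFBR1, -0.50 ± 0.19 (adjusted p = 0.175), lower in 5 of 5 lines. The second probes of TGFB2 and TGFBR2 were lower in 5 of 5 lines too, but were mostly near background in MDA-MB-361 and T-47D. In these 2 lines at most 1 of 6 arrays was well above background for either probe. The leading probes of TGFB2 and TGFBR2 were lower in 2 of 5 and 4 of 5 lines. Each line has only 1 array at 30 min to start from. For each of the 10 leading probes the 95% interval of the change from 30 min lay within 0.90 of 0.

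The mean BMP7 log ratio over the 5 lines also passed the test for 0 of 13 probes (0.00976% of all features), with 3 unadjusted p values under the threshold. The lowest was that of INHBB, whose ratio was below 0 in 5 of 5 line means and averaged -0.11 ± 0.030 (SE, limma, adjusted p = 0.194). It lay below 0 on 6 of 6 arrays of HCC1954, between -0.25 and -0.027, and of ZR-75-30, between -0.35 and -0.13. TGFB2 had a mean of 0.21 ± 0.067 (adjusted p = 0.243), above 0 in 5 of 5 line means and on 23 of 29 arrays, including all 6 of HCC1954 (0.15 to 0.47) and of ZR-75-30 (0.12 to 0.91). Its second probe averaged 0.0096 ± 0.084 and was above 0 on 13 of 30 arrays. TGFB1 averaged -0.10 ± 0.039, with line means from -0.25 to -0.0088 in the lines where it was well above background and no measurable direction in T-47D. Where the 30 arrays were fitted singly, with a random block for the slide or for the cell line, INHBB and TGFB2 passed the test. Such fits take the time points of the same 5 lines as units, and a fixed dye bias stays in the ratio. The share of all features they call is not given here, so no conclusion is drawn from these calls.

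Within single lines, 1 of 65 changes from the first hour to 3 to 24 h passed the test, that of TGFBR1 in ZR-75-30. In ZR-75-30 the log ratio of TGFBR1 was 0.53 at 30 min and 0.31 at 1 h, then -0.63, -0.94, -0.63 and -0.33 at 3, 6, 12 and 24 h. Both early values lay above 0 and the 4 later ones below it, a change of -1.06 ± 0.30 (SE, limma, adjusted p = 0.0493). Of all features, 4.24% passed in this line, against 0.603% in T-47D, 0.0561% in MDA-MB-361, 0.0244% in MDA-MB-231 and 0.0146% in HCC1954. ZR-75-30 at 30 min and at 6 h belonged to the second scan batch. Without the 6 h array the change was -0.96 (adjusted p = 0.0786), with scan batch as a term -0.99 (adjusted p = 0.0598), and over all alternatives -1.17 to -0.47 with adjusted p from 0.0015 to 0.603.

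A later turn could be seen in T-47D, where the log ratio of TGFBR1 was 0.47, 0.67 and 0.96 at 30 min, 1 h and 3 h. It was -0.75, -0.26 and -0.30 at 6, 12 and 24 h. The change from the first hour to 3 to 24 h, which counts the 3 h array as late, was -0.66 ± 0.30 (limma, adjusted p = 0.317). The vehicle channel at 3 h and the BMP7 channel at 24 h were not well above background. In MDA-MB-361 the ratio was below 0 on 6 of 6 arrays, from -1.11 to -0.30. In HCC1954 and MDA-MB-231 it lay between -0.28 and 0.46. That the changes differ between lines did not pass the test for TGFBR1 or any of the 13 probes (0.0537% of all features did, and 0 of 13 had an unadjusted p under the threshold), nor did the difference between lines in the ratio itself (0 of 13 against 11.0%, with 3 unadjusted p values under the threshold and the lowest adjusted p, 0.0986, for TGFB3).

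Both channels moved in the TGFBR1 time courses. In ZR-75-30 the vehicle level was -4.17 at 30 min and -3.07 at 3 h, while the level of the BMP7-treated cells, relative to the 75th percentile of their own channel, went from -3.64 to -3.70 and reached -4.37 at 6 h. On the MDA-MB-361 array with the 2-fold event, that of 12 h, the vehicle level was -1.83 and that of the BMP7-treated cells -2.95. Over the 5 lines, the TGFBR1 vehicle level at 12 and 24 h exceeded that of the first hour by 0.44 ± 0.14 (limma, adjusted p = 0.365). None of the 13 probes passed this test, 3 had an unadjusted p under the threshold, and 0.0122% of all features passed.

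Some ratios stood out on single arrays. TGFB1 in MDA-MB-231 had a log ratio of 0.48 at 12 h and -0.50 at 24 h, with an SD among its spots of 0.055 and 0.080. These ratios exceeded the spread within the array, which does not measure the spread between arrays. On the same arrays TGFBR3 had ratios of 0.93 and -0.70, and the second TGFB2 probe 0.67 and -0.60. Others went the opposite way, such as the leading TGFB2 probe with 0.044 and 0.64 and INHBA with -0.22 and 0.27. The swing between these arrays was thus not particular to TGFB1, and its cause was not tested. In ZR-75-30 at 6 h the TGFB1 ratio was -0.67 with a spot SD of 0.038, and on this array the vehicle level was the highest of the line (-0.85). TGFBR2 in T-47D had ratios above 0 on 6 of 6 arrays, from 0.033 to 0.89, but was not well above background there. INHBA and ENG stayed between -0.54 and 0.52 on all 30 arrays.

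The wider pathway was read from 7 lists of 65 genes, of which 64 were measured and 54 were well above background throughout at least 1 line. Of the 64, 57 differed between lines in the vehicle level, to be read against the 79.6% of all features that did. The counts of the single lists below have the same background and some lie under it. Of the genes for latency and activation of TGF-β, 11 of 12 differed, most widely ITGB8, the β8 chain of an integrin that activates latent TGF-β, with a mean level of 0.73 in HCC1954 and a lowest one of -5.68 in ZR-75-30, where 1 of 6 arrays was well above background. Of the extracellular antagonists, 3 of 4 differed, and FST (follistatin), which binds and blocks activins, had mean levels of 2.16 in MDA-MB-231, 1.69 in HCC1954 and -1.12 in ZR-75-30. It was not well above background on any array of MDA-MB-361 or T-47D. FST was thus high in both lines that were high in INHBA.

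Among other activin, inhibin and nodal ligands, 6 of 8 measured genes differed, LEFTY1, a nodal antagonist, being well above background only in MDA-MB-361 (-3.02) and ZR-75-30 (-3.35). Of the activin and related receptors 6 of 7 differed, with BAMBI, a pseudoreceptor that dampens TGF-β signals, at 6.76 in ZR-75-30 and 2.53 in MDA-MB-231. Of the intracellular transducers and inhibitors 13 of 14 differed, with the ubiquitin ligase gene SMURF2 at 1.01 in MDA-MB-231 and -2.71 in T-47D. The known TGF-β target genes differed in 14 of 15 cases and had a median span of 4.91. CCN2 (connective tissue growth factor) spanned most, with means of 3.22 in MDA-MB-231, 0.78 in HCC1954, -0.16 in ZR-75-30, -4.86 in MDA-MB-361 and -6.05 in T-47D, with 4 and 2 of 6 arrays well above background in the last 2. Its vehicle level varied widely over time, from 4.42 at 1 h to -1.59 at 12 h in HCC1954 (SD 2.24) and from 1.50 at 1 h to -1.31 at 24 h in ZR-75-30 (SD 1.01). Other targets had other orders: COL1A1, a collagen gene, was highest in MDA-MB-361 (-0.90) and T-47D (-2.63), and BHLHE40, a transcription factor gene, was highest in T-47D (1.39). The direct BMP targets differed in 4 of 4 cases, ID2 most widely, with 3.05 in MDA-MB-361 and -3.72 in MDA-MB-231.

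Of the 60 measured genes other than direct BMP targets, none passed the tests of a mean BMP7 ratio or of its change from 30 min. Within lines 1 passed, SMAD4, the common partner of the SMAD proteins, whose log ratio in ZR-75-30 changed by -0.84 ± 0.22 (SE, limma, adjusted p = 0.0307), where 4.24% of all features passed. The ratio differed between lines for 9 of the 60, a share to be read against the 11.0% of all features. They included ITGB8, with a mean ratio of -1.03 ± 1.14 (SD, n = 6) in MDA-MB-231 and 0.22 ± 0.40 in T-47D, and IGFBP3, an insulin-like growth factor binding protein, with 0.85 ± 0.56 in MDA-MB-361 and 0.00040 ± 0.13 in MDA-MB-231 (limma, adjusted p = 0.0455 and 0.0267). The ITGB8 mean rested in part on the 12 h array (-2.98), without which it was -0.64 ± 0.70, and both channels were well above background on 4 of the 6 arrays. INHBC, another inhibin subunit gene, had 0.67 ± 0.20 in MDA-MB-361 and -0.012 ± 0.34 in T-47D. SNAI2, a transcription factor of epithelial-mesenchymal transition, LTBP1 and LTBP3, which tether latent TGF-β, and PMEPA1, an inhibitor of the pathway, were among the others, with the line means of the last 3 lying within 0.50 of each other.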

How the data were processed

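The submitters hybridized Cy3-labeled vehicle and Cy5-labeled BMP7 samples to Agilent Whole Human Genome 44K arrays. Per the file headers, Feature Extraction 9.5.1.1 made the deposited log10 ratios and the deposited intensities of both channels (background-corrected and dye-normalized processed signals). The authors also deposited log2 ratios in a series matrix. Coordinates of probes are hg18 as in the files.

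Control and outlier-marked spots were left out and spots of a probe averaged. Log10 ratios were changed to log2, with each array's median at 0. Ratios of exactly 0 come from surrogate signals in both channels. Vehicle levels were log2 processed Cy3 signals minus the array's 75th percentile. All 41000 features were fitted with limma 3.58.1 (R 4.3.3), with Benjamini-Hochberg adjustment over all features and a threshold of 0.05, after tests on simulated data. Changes over time were fitted with cell line as a block, the mean BMP7 ratio on 5 line means, and the other tests on single arrays without covariates. The other steps used Python 3.11.15 with pandas 2.3.3, numpy 2.4.6 and matplotlib 3.10.9.

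All probes of the 10 genes are named. Of other pathway genes, those with the widest span in each list and up to 12 past a BMP7 test are named, and for likeness the 3 symbols with the highest r, each read from its brightest probe. Members and lists were chosen with earlier results of these data known. The number of arrays limits the precision.

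Alternatives were quantile, normexp-loess, normexp-median and Aquantile normalization (normexp offset 50), the series matrix, filters on dim spots, outlier spots kept, slide or cell line as a random block, scan batch or time point as a term, other early time points, 3-fold, and leaving out ZR-75-30 at 6 h, each line or each time point. The first scan batch alone, leaving out HCC1954 at 1 h and the ITGB8 mean without 1 array were chosen after seeing the data. Probe sequences were not used here.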

Additional observations from a re-analysis of the deposited data

Results flagged for a closer look

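Of 35 groups of 6 vehicle levels in which the leading probe was well above background on every array, 5 held 1 array whose distance from the nearest other was, relative to the group's range, above Dixon's critical value at 95%. For independent replicates of 1 condition, chance alone would mark about 1 in 20 groups. The 6 levels here are time points and the groups share arrays, so the count cannot be judged against that rate. INHBA in HCC1954 at 1 h had a level of -1.20, the nearest other array 1.33 and the opposite end 2.10. TGFBR1 on that same array had -3.12, against -1.99 and -1.32. TGFB2 in MDA-MB-361 at 24 h had -3.35, against -2.19 and -1.50. TGFB2 in T-47D at 24 h had -0.98, against -2.43 and -3.23. TGFB1 in ZR-75-30 at 6 h, the array with most 2-fold changes, had -0.85, against -1.59 and -1.88.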

How the results depend on the processing

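All 13 probes differed between lines under each of 16 alternatives, and of 109 pair differences 10 lost the call under 1 or more, none changing sign. TGFBI in HCC1954 against MDA-MB-231 lost it under 7 and in MDA-MB-231 against ZR-75-30 under 6 alternatives, INHBB in HCC1954 against ZR-75-30 under 12, and TGFBR3 in MDA-MB-361 against ZR-75-30 under 9. For the mean BMP7 ratio the count of 0 became 1 with normexp and median scaling and 2 with slide or with cell line as a random block. For the change from 30 min it became 1 with dim spots left out, whether judged by either channel or by both (TGFBR1, lower). Within lines the count of 1 became 7 with normexp and median scaling (all lower, in HCC1954), 2 with either of these filters, which left 25 tests (TGFBR1 in T-47D and ZR-75-30), 2 in the first scan batch alone, and 0 with series matrix values, without ZR-75-30 at 6 h, with scan batch as a term and with 30 min alone as the early time point. For the difference of ratios between lines it became 2 with normexp and loess, and leaving out 1 line gave 0 to 1 (1 without MDA-MB-231). The 6 ratios of 2-fold became 1 with normexp and loess, 13 with normexp and median scaling, 3 with both channels well above background and 0 at 3-fold. The shares of all features called under these alternatives are not given here. The counts therefore describe only how the calls depend on the processing, and are no result about these genes. The causes were not tested. Leaving out ZR-75-30 at 6 h could not apply to the vehicle change over time, which uses no 6 h array. No paired analysis was possible by replicate number because each line and time point has 1 array, and cell line or time point served as a block or term instead. Signals not well above background limit TGFBR3, TGFB1 and TGFBR2 in the lines named.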
